A study of Homo sapiens with 4 samples.

Results

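The mRNAs described here encode the DEAD-box and DEAH-box RNA helicases, taken as the protein-coding genes whose GENCODE v44 symbol is DDX or DHX followed by a number and optional letters. The rule gave 53 genes, 37 with a DDX and 16 with a DHX symbol, and used no measured value. Of these, 52 had a row among the 63677 genes of the count table, and 47 had enough reads to be tested, of 14645 genes tested in all. DDX52, whose identifier in GENCODE v44 has no row under it, was not analysed here.

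DEAD-box and DEAH-box proteins bind RNA and hydrolyse ATP to open short duplexes, to strip proteins from RNA or to hold RNA in place. They are named after a short run of residues in the ATP-binding core, motif II (Asp-Glu-Ala-Asp or Asp-Glu-Ala-His), which takes part in ATP hydrolysis. The family acts at nearly every step in the life of an RNA: successive members drive the spliceosome through its cycle, others assemble ribosomal subunits in the nucleolus, release mRNA from the nuclear pore, unwind leaders for translation or sense viral RNA. Only the mRNAs of these proteins were measured here, not the proteins.

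The libraries came from HCT116 cells, an established human colorectal carcinoma line, and all of them from cells transfected for 48 h with pcDNA3.1-ORC1-3xFLAG, a plasmid that expresses ORC1, a subunit of the complex that marks replication origins, with a FLAG tag. Nuclear lysate was precipitated without crosslinking with an antibody to FLAG, which gave 2 ORC1-FLAG IP libraries, and RNA of the lysate itself gave 2 Input libraries, each pair numbered replicate 1 and 2. The question put to each helicase mRNA was how much of it was recovered with ORC1-FLAG relative to Input. No library from a control antibody or from untransfected cells was analysed here, so binding to the beads or the antibody cannot be told apart from binding to ORC1-FLAG, and although the study describes duplicate experiments, the labels do not name separate cultures, so that p-values measure the spread between these libraries only.

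The libraries held 27483148 and 20280445 counted reads in the IPs and 14677002 and 9213877 in the Inputs. Levels are reads relative to the library total (CPM), rescaled with edgeR's default method (TMM, a trimmed mean of log ratios), whose factors were 0.758 and 0.868 in the IPs and 1.19 and 1.28 in the Inputs. The epithelial markers EPCAM, CDH1, KRT8, KRT18 and KRT19 were all counted, with a summed level of 4510 and 4127 CPM in the IPs (replicates 1 and 2) and 2313 and 2526 CPM in the Inputs, and none was called. Of 6 markers of other cells, COL1A1 was the only one tested and was called enriched (log2 fold change 1.38 ± 0.27, SE), PECAM1 and CD3E were at 0 in every library, PTPRC, COL1A2 and ALB had a few reads, and their summed level was 21.8 and 27.1 CPM in the IPs and 7.90 and 11.0 CPM in the Inputs. The part of these markers in the results was not tested.

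The coding sequences below show the stretch that defines the family, motif II in capitals within 30 bases of coding sequence, for 1 tested member of each box type that had an enriched member. A script translated the canonical GENCODE v44 transcripts (GRCh38) and searched for Asp-Glu, any residue, then Asp or His, after 3 mostly hydrophobic residues.
DDX10, DEAD, from codon 222: ttagttcttGATGAAGCAGATagaatcttg
DHX8, DEAH, from codon 685: atcatgttgGACGAGGCACATgagaggaca
DHX9, DEIH, from codon 511: gtaattgtaGATGAAATACATgaaagagat
DDX39A, DECD, from codon 195: tttgtgctgGACGAGTGTGACaagatgctg
DDX21, DEVD, from codon 339: gttgtcctgGATGAAGTGGACcagatgttg
DHX57, DEVH, from codon 668: atcattgttGATGAAGTTCATgagaggaca
Among the DDX genes the box read DEAD in 29, DECD in 2 (DDX39A and DDX39B), DEVD in 2 (DDX21 and DDX50), DEVH in 2 (DDX60 and DDX60L), DESD in 1 (DDX52) and DEAH in 1 (DDX11). Among the DHX genes it read DEAH in 8, DEVH in 4, DEIH in 2 (DHX9 and DHX36) and DECH in 1 (DHX58), and in DHX32 no match was found. DHX8 held a further match, DEDD at codon 135, besides its DEAH box. The last residue of the box was Asp in most DDX genes and His in every DHX gene with a match, while the third residue varied in both.

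Each mRNA was tested with edgeR's quasi-likelihood test on all 14645 genes and called enriched or depleted in the IP at a Benjamini-Hochberg adjusted p below 0.05 with a log2 fold change above 1 or below -1. Of the 47 helicase mRNAs tested, 23 (48.9%) were called enriched, against 10.5% of all genes tested, and 0 were called depleted, against 8.3% of all genes. DESeq2 likewise called 23 enriched and 0 depleted. Over all genes it called 1674 enriched and 1168 depleted, 5.23% and 3.65% of the 31990 genes it fitted. No count filter was applied to these genes, so the shares do not compare directly with those of edgeR, which called 1542 and 1215. At an unadjusted p below 0.05 with the same fold minimum the edgeR counts were also 23 and 0. The shares of all genes at that threshold were not computed. In the fit that keeps each IP with its own Input (replicate block), the background was 13.4% enriched and 13.4% depleted, and the helicase counts were again 23 and 0. The share was alike in the DDX genes (15 of 31) and the DHX genes (8 of 16), and in the members with a DEAD or DEAH box (16 of 33) and with another or no box (7 of 14).

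The median log2 fold change of the 47 mRNAs was 0.97, with quartiles of 0.51 and 1.33, against 0.01 over all genes tested and 0.08 over the 12542 protein-coding genes tested. Helicase mRNAs lay above the all-gene median in 44 of 47 cases, and 16 of 47 were in the top 10% of all log2 fold changes. The ratio of IP to Input within a replicate, taken on TMM-scaled CPM plus 0.5, was above 1-fold in both replicates for 42 of 47 (89.4%), against 42.9% of all genes tested. Both IP levels exceeded both Input levels for 38 of 47, against 33.2% of all genes tested. DDX59 was the only one below 1-fold in both replicates.

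**Figure D1:**
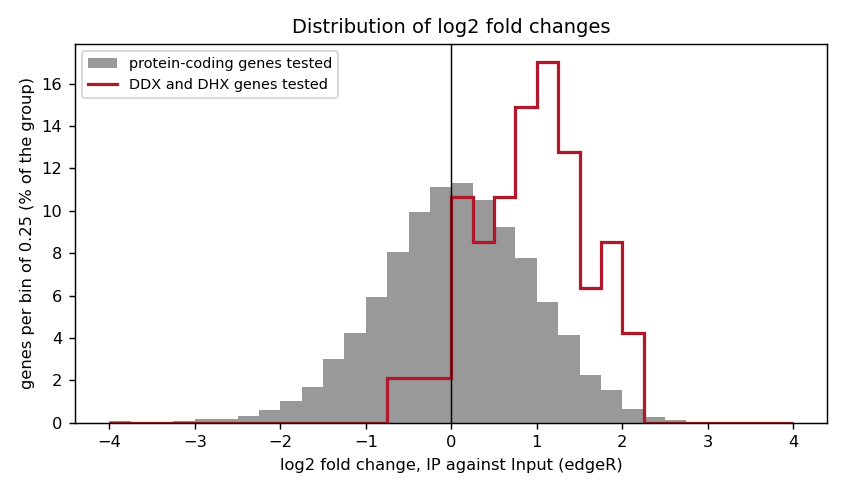
Histogram of fitted log2 fold changes of ORC1-FLAG IP against Input in bins of 0.25 (horizontal axis), as the percentage of each group (vertical axis), for the protein-coding genes tested (grey bars) and the 47 DDX and DHX genes tested (red line). The red line peaks at about 1 and has no gene below -0.75, while the grey bars centre near 0.

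The calls depended on how libraries were scaled. With library totals alone, which shifts the median of all genes to -0.59, 380 genes in all were called enriched and 3257 depleted, in place of 1542 and 1215, and the helicases numbered 7 enriched and 1 depleted (DDX59). With upper-quartile scaling, which shifts the median of all genes to -0.16, the totals were 1080 and 1542 and the helicases 16 and 0. The distance of the helicase median from the median of all genes was 0.97 under TMM, library totals and upper-quartile scaling and 0.96 under DESeq2's size factors, so the values below are read relative to the bulk of RNAs.

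Ribosome biogenesis and the nucleolus was the largest role group, with 15 mRNAs tested, 8 enriched and a median log2 fold change of 1.11. It also held the pair with the highest values of the family. DDX10, needed for pre-rRNA processing, lies at chr11:108665058-108940999 (GRCh38, plus strand). Its level was 88.7 and 55.5 CPM in the Inputs (replicates 1 and 2) and 381 and 294 CPM in the IPs, ratios of 4.27 and 5.26. The lowest IP value was over the highest Input value by a wide margin, and the fitted log2 fold change was 2.22 ± 0.32 (SE, n = 2 IP and 2 Input; edgeR adjusted p = 0.0107). DDX24, a factor of the large subunit at chr14:94048287-94081202 (minus strand), read 267 and 262 CPM in the Inputs and 1099 and 1063 CPM in the IPs. Its ratios of 4.11 and 4.06 were almost equal, with a log2 fold change of 2.03 ± 0.26 (edgeR adjusted p = 0.0105).

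DDX27, at chr20:49219347-49244077 (plus strand) and also a factor of the large subunit, followed with 68.4 and 48.2 CPM in the Inputs and 233 and 186 CPM in the IPs (log2 fold change 1.84 ± 0.28). DDX18, whose yeast counterpart Has1 serves both subunits, read 325 and 229 CPM in the Inputs and 959 and 688 CPM in the IPs (1.57 ± 0.31). In both genes replicate 1 was the higher in IP and in Input alike, and the IP and Input ranges did not overlap. Lower but called were DDX31 at 1.35, DDX54 at 1.33, DHX37, which frees the U3 snoRNA from the small subunit precursor, at 1.16, and DDX21, which acts in rRNA transcription and processing, at 1.11.

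The other 7 nucleolar mRNAs were not called. DDX55 lay just under the fold minimum with a log2 fold change of 0.97 ± 0.22 (edgeR adjusted p = 0.0252), and DDX49, DDX50 and DDX51 followed at 0.90, 0.77 and 0.72. DHX33 at 0.20 and DDX56 at 0.15 had overlapping IP and Input levels. DDX56 read 163 and 129 CPM in the IPs against 142 and 121 CPM in the Inputs. DHX33 read 110 and 81.2 CPM against 80.2 and 86.4 CPM, and its replicates pointed opposite ways, at 1.37-fold and 0.940-fold. DDX47 had almost no reads (11 and 40 in the IPs and 3 and 42 in the Inputs) and a log2 fold change of -0.39 ± 1.21, so no direction could be read. Of the exonic bases of DDX47, 36.5% are shared with APOLD1 on the same strand, and the effect of that overlap on its count was not tested.

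Pre-mRNA splicing was next, with 10 mRNAs tested, 6 enriched and a median of 1.03. The highest values were those of DHX38, DHX8 and DDX23. DHX38, the human counterpart of yeast Prp16, which remodels the spliceosome before the second step, lies at chr16:72093613-72112912 (plus strand) and read 80.2 and 70.9 CPM in the Inputs and 300.4 and 219 CPM in the IPs (log2 fold change 1.78 ± 0.27, edgeR adjusted p = 0.0108). DHX8, the counterpart of Prp22, which releases the spliced mRNA, lies at chr17:43483865-43610338 (plus strand) and read 118 and 129 CPM in the Inputs and 478 and 366 CPM in the IPs (1.77 ± 0.26, adjusted p = 0.0108). DDX23, the counterpart of Prp28, which helps U6 replace U1 at the 5′ splice site, read 158 and 113 CPM in the Inputs and 571 and 329 CPM in the IPs (1.73 ± 0.35, adjusted p = 0.0185). In these 3 genes the IP exceeded the Input in every pairing of libraries, and the fold was larger in replicate 1 than in replicate 2.

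DDX41, found in the catalytic spliceosome, was enriched at 1.58, with 87.0 and 73.9 CPM in the Inputs against 282 and 199 CPM in the IPs. DDX42, which binds the U2 component SF3B1, was enriched at 1.05, and DHX15, the counterpart of Prp43 that takes the spent spliceosome apart, at 1.02, the smallest fold among the 23. Not called were DHX16, the counterpart of Prp2, at 0.72, DHX35 at 0.50, DDX46, the counterpart of Prp5, at 0.29 and DDX39B at 0.09. The last 4 are splicing helicases too, so the group was not uniform. DDX46 read 271 and 175 CPM in the Inputs and 286 and 258 CPM in the IPs, and these ranges overlapped.

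The mRNA export group held 3 tested genes, of which DDX19B (log2 fold change 1.13 ± 0.26) and DDX39A (1.02 ± 0.29) were enriched. DDX19B and its close copy DDX19A, which release mRNA at the cytoplasmic face of the nuclear pore, had mean Input levels of 2.21 and 8.63 CPM per kilobase of exonic sequence and closer fold changes. DDX19B read 10.5 and 9.16 CPM in the Inputs and 25.0 and 18.1 CPM in the IPs, and DDX19A read 69.8 and 65.6 CPM against 129 and 107 CPM, a log2 fold change of 0.80 ± 0.23 that missed the fold minimum (edgeR adjusted p = 0.0470). Both share exonic bases with a read-through gene on the same strand (23.9% of DDX19A and 16.0% of DDX19B), which was listed at 0 in every library. Reads that match both copies could have been counted for either, and that effect was not tested.

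DDX39A and DDX39B, paralogues that load export factors on spliced mRNA, gave unlike values. DDX39A read 139.8 and 111 CPM in the Inputs and 302 and 208 CPM in the IPs, so its IPs were the higher in both replicates. DDX39B read 9.85 and 44.8 CPM in the Inputs and 13.1 and 44.9 CPM in the IPs. The DDX39B levels differed far more between replicates than between IP and Input, its SE was 0.75, and 30.8% of its exonic bases are shared with other genes on the same strand, among them a read-through gene listed at 0 in every library. Any comparison of these paralogues is limited by that spread.

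Among nuclear helicases with other tasks, 1 of 4 was enriched. This was DHX9, RNA helicase A, an abundant nuclear helicase that resolves double-stranded RNA and R-loops, at chr1:182839347-182887982 (plus strand). DHX9 read 531 and 534 CPM in the Inputs, nearly the same in both, and 2280.2 and 1631 CPM in the IPs. The ratios were 4.29 and 3.05 and the log2 fold change was 1.88 ± 0.30 (edgeR adjusted p = 0.0121). DDX20 (Gemin3, a subunit of the SMN complex) had 0.85 ± 0.23, with an adjusted p of 0.0413 but a fold under the minimum. DDX17, a transcription and splicing cofactor, had 0.56, and DDX1, a subunit of the tRNA ligase complex, 0.42.

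Helicases of translation and mRNA turnover were the group with the fewest calls among those with at least 5 genes, 1 of 5, with a median of 0.56. The call was DHX29, which helps ribosomes scan structured leaders, with 84.9 and 55.4 CPM in the Inputs and 197 and 141 CPM in the IPs (log2 fold change 1.27 ± 0.31, edgeR adjusted p = 0.0287). DHX36, which unwinds G-quadruplexes and carries the same DEIH box as DHX9, had 0.78, and DHX34, a factor of nonsense-mediated decay, 0.56. DDX6, which represses and decaps mRNA, read 509.6 and 434.5 CPM in the Inputs and 661 and 478 CPM in the IPs (0.27 ± 0.28). DDX3X, which aids translation of structured mRNAs, read 569.9 and 571 CPM in the Inputs and 677 and 420.2 CPM in the IPs, with a log2 fold change of -0.06 ± 0.31. The 2 replicates of DDX3X pointed opposite ways, at 1.19-fold and 0.737-fold. Per kilobase of exonic sequence the mean Input level was 41.2 CPM in DDX6 and 36.0 CPM in DDX3X, close to the 37.0 of DHX15 and the 35.5 of DDX18, which were enriched.

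The remaining groups were small. Both interferon-induced paralogues, DDX60 and DDX60L, were enriched, with a log2 fold change of 1.33 ± 0.24 in DDX60 and 1.03 ± 0.29 in DDX60L, whereas DHX58 (LGP2, a RIG-I-like receptor) had few reads and 0.17 ± 0.39. DDX60L read 45.8 and 72.6 CPM in the Inputs and 109 and 132 CPM in the IPs, and IP and Input did not overlap. Neither mitochondrial helicase was called: DHX30 had 0.90 ± 0.24 (edgeR adjusted p = 0.0392) and DDX28 0.23 ± 0.22. DDX11, a DNA helicase of sister chromatid cohesion with a DEAH box, was enriched at 1.19 ± 0.24, with 31.7 and 38.3 CPM in the Inputs and 87.4 and 72.2 CPM in the IPs. Its near-identical copy DDX12P had 38 and 45 reads in the Inputs and 150 and 114 in the IPs, so reads of the pair could have been counted for either.

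No role was assigned to the last 4 genes. DHX40 (log2 fold change 1.49 ± 0.30) and DHX57 (1.26 ± 0.22) were enriched, and DHX32 had 0.52. DDX59 was the lowest of the family at -0.69 ± 0.25 (edgeR adjusted p = 0.0893), with 17.4 and 13.3 CPM in the Inputs and 9.36 and 9.67 CPM in the IPs. It was the only helicase whose Input libraries both exceeded both IP libraries. With the replicate block its log2 fold change was -0.68 (edgeR adjusted p = 0.0081), short of the fold minimum, so neither fit called it.

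**Figure D2:**
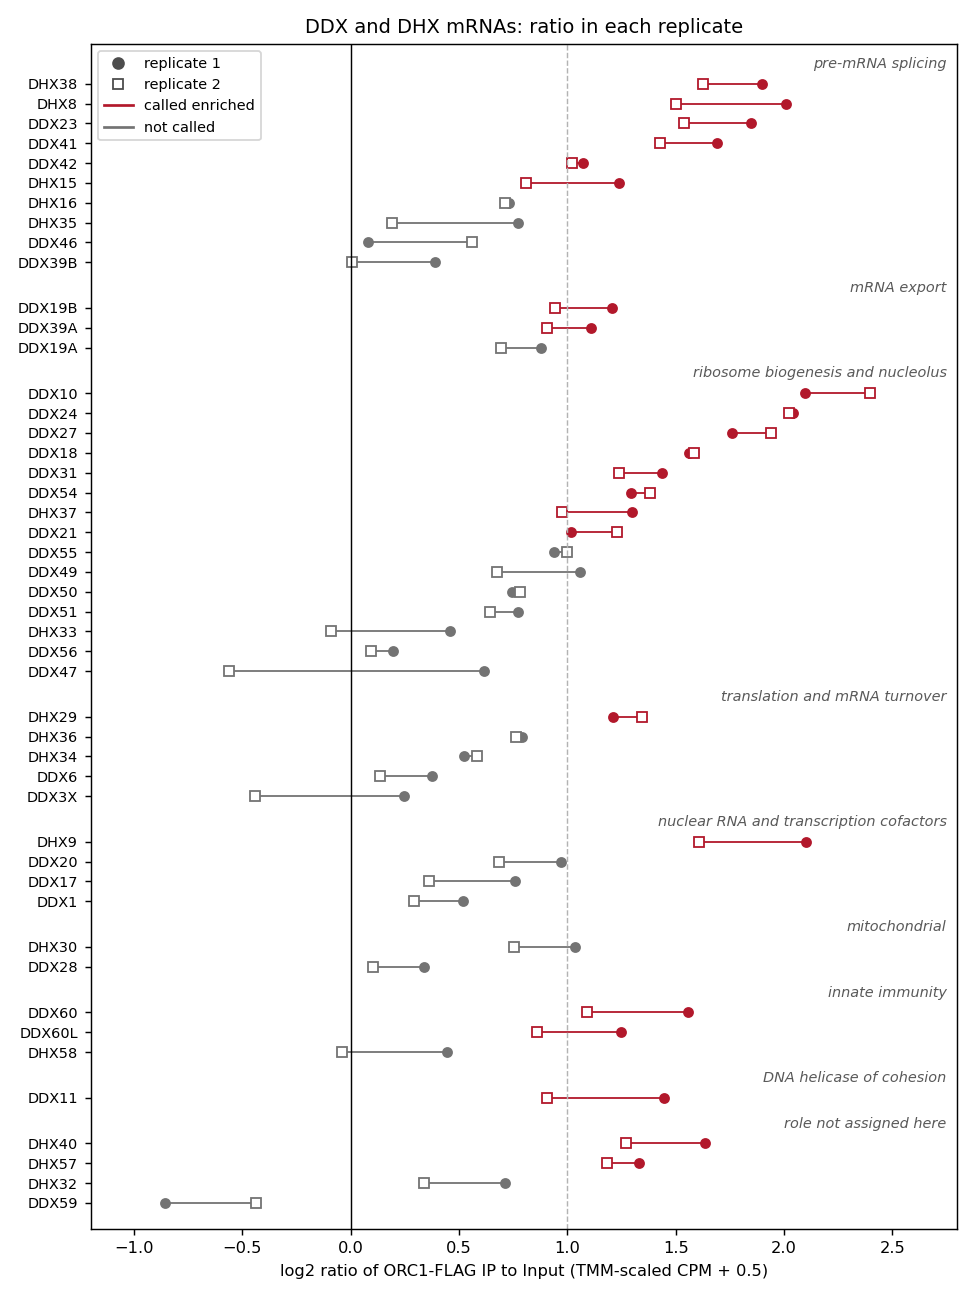
Log2 ratio of ORC1-FLAG IP to Input on TMM-scaled CPM plus 0.5 (horizontal axis) for each tested DDX and DHX gene (vertical axis, grouped by role), with replicate 1 as a filled circle, replicate 2 as an open square and genes called enriched in red. The 2 points of a gene mostly lie close together, and DDX59 alone has both below 0. In 17 genes both lie beyond 1 (dashed line), and the share of all genes there was not computed.

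Replicates ranked the helicases alike: across the 47 genes the ratios of the 2 replicates had a Spearman rho of 0.93, as a description over genes that share the same libraries. The ratio was larger in replicate 1 for 36 of 47, and the median log2 ratio was 1.04 in replicate 1 and 0.81 in replicate 2, against 0.05 and -0.02 over all genes tested. The exceptions included DDX10, DDX27, DDX21 and DHX29, whose ratios were larger in replicate 2. Among the 23 enriched mRNAs, SEs lay between 0.22 and 0.35 and edgeR adjusted p-values between 0.0105 and 0.0443 in this design of 2 IP against 2 Input libraries.

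**Figure D3:**
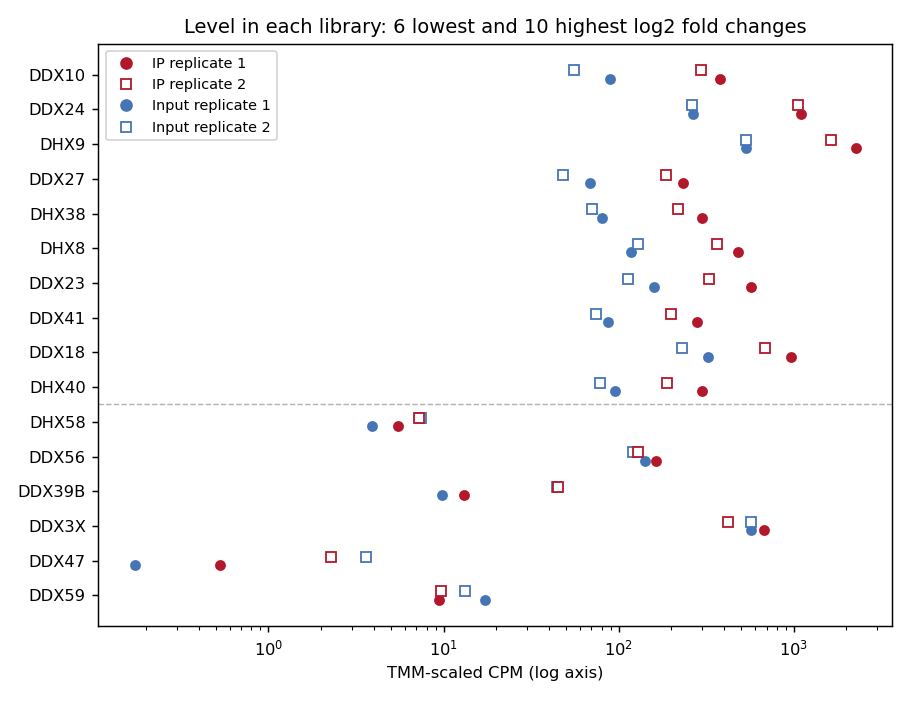
TMM-scaled CPM (horizontal log axis) in each of the 4 libraries for the 10 DDX and DHX genes with the highest and the 6 with the lowest log2 fold change (vertical axis, separated by a dashed line), with IP in red, Input in blue, replicate 1 as circles and replicate 2 as squares. In the upper 10 the red points lie to the right of both blue points, while in the lower 6 the colours mix except in DDX59, where both red points lie to the left.

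Which single helicases passed the threshold depended in part on single libraries. When a library is left out, its group has a single library, which is assumed to vary like the libraries of the other group. The median log2 fold change of the helicases was 0.86 without IP replicate 1 (all genes -0.02) and 0.92 without Input replicate 1 (-0.05). It was 1.10 without IP replicate 2 (-0.07) and 0.81 without Input replicate 2 (-0.04). DDX10, DDX23, DDX24, DDX27, DHX8, DHX9 and DHX38 were enriched in each of 12 alternative fits. These were also the 7 called with library totals alone, beside 2.59% of all genes. DDX11, DDX18, DDX31, DDX41, DDX60, DHX40 and DHX57 lost the call only with library totals. The share of all genes enriched in every fit was not computed. Without IP replicate 1, the log2 fold changes of the lost calls were 0.92 in DDX19B, 1.01 in DDX21, 0.77 in DDX39A, 1.04 in DDX42, 1.00 in DHX15, 1.05 in DHX29 and 0.94 in DHX37. Without Input replicate 2, the lost calls read 0.88 in DDX19B, 0.74 in DDX21, 0.71 in DDX39A, 0.87 in DDX42, 0.94 in DDX54, 1.02 in DHX15, 0.84 in DHX29 and 0.93 in DHX37. All of these stayed above 0 in both fits, and those with a value over 1 lost the call on the adjusted p. DDX60L fell under the threshold when Input replicate 1 (0.78) or IP replicate 2 (0.94) was left out, and DHX15 without Input replicate 1 (0.92). Calls were gained by DDX49 (1.08) and DDX55 (1.13) without Input replicate 1, by DDX49 (1.24), DDX55 (1.10) and DDX20 (1.06) without IP replicate 2, and by DDX39B (1.42) without Input replicate 2, and DDX59 became depleted without Input replicate 2 (-1.02).

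To set genes beside each other, levels were divided by exonic length, with all annotated exons of a gene merged. On this scale the Input level of the helicases had a median of 12.1 CPM per kb, against 4.48 over protein-coding genes tested. DHX9 at 90.3 and DDX21 at 68.5 CPM per kb (means of the 2 Inputs) led the order. DDX6 followed at 41.2, DDX17 at 37.7, DHX15 at 37.0, DDX3X at 36.0, DDX56 at 35.8 and DDX18 at 35.5. Neighbours from DDX6 to DDX18 did not separate beyond the spread of their Inputs, for example 44.5 and 37.9 CPM per kb in DDX6 and 34.5 and 41.0 in DDX17. High and low fold changes both occurred at high level, as in DHX9 and DDX3X. DDX10, with the highest fold change, had an Input level of 3.99 CPM per kb. Its merged exons hold 18059 bases and its canonical transcript 3217, so its place in this order depends on the length used. Across the 47 genes the rho between Input CPM per kb and log2 fold change was 0.11.

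Coding length tracked recovery more closely. The helicases' coding sequences had a median of 2298 bases, against 1436 over the protein-coding genes tested, and their rho with the log2 fold change was 0.50 over 47 helicases and 0.59 over 12534 protein-coding genes. Without Input replicate 2 the rho over the helicases was 0.32. The number of exons gave 0.43 over the helicases and 0.53 over protein-coding genes, exonic length 0.20 and 0.30, and GC content 0.06 and 0.07. All these are descriptions over genes of the same 4 libraries. The coding part made up a median of 75.3% of the helicase transcripts and 49.3% of protein-coding transcripts, and the 3′ UTR medians were 713 and 1325 bases.

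Within classes of coding length most helicases lay above the class median of protein-coding genes, except between 1500 and 2000 bases. Exon number and Input level were not held fixed in these classes, and the part of length in recovery was not tested. Under 1500 bases, 6 of 7 exceeded the median of protein-coding genes in that class and 2 of 7 were enriched, against 3.44% of the class. Between 1500 and 2000 bases, 3 of 6 exceeded the median and 1 was enriched (8.52% of the class). Between 2000 and 2500 bases, 13 of 16 did and 7 were enriched (14.0%), and between 2500 and 3500 bases 8 of 10 did and 6 were enriched (22.9%). From 3500 bases on, 6 of 8 exceeded the class median of 1.04 and 7 were enriched, in a class where 45.2% of protein-coding genes were enriched too. Among these 8 long members, DHX9 (1.88), DHX38 (1.78) and DHX8 (1.77) lay furthest above that median, DDX60 (1.33), DHX29 (1.27) and DHX57 (1.26) lay nearer to it, and DDX60L (1.03) and DHX30 (0.90) lay below it.

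**Figure D4:**
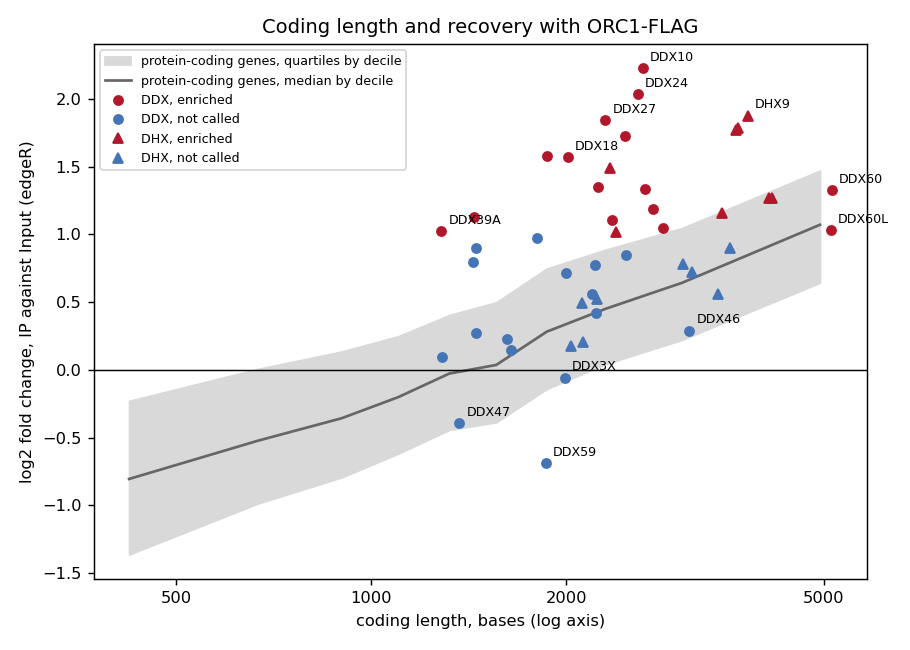
Fitted log2 fold change (vertical axis) against coding length in bases (horizontal log axis) for the 47 tested DDX (circles) and DHX (triangles) genes, enriched in red and not called in blue, with the median (line) and quartiles (band) of protein-coding genes by decile of coding length. Most helicases lie above the line at their own length, DDX10, DDX24, DDX27 and DHX9 are among those above the band, and DDX59, DDX47, DDX3X and DDX46 are among those below the line.

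The study behind these libraries examined GAA repeats in RNA, so tandem GAA was looked for in the coding sequences (GAAGAAGAA or longer, the coding strand only). The runs of the enriched members with 4 or more units are shown first, then those of 3 paralogous or contrasting members, with the GAA units in capitals and 12 bases on each side.
DDX27, 6 units: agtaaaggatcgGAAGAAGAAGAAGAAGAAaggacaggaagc
DDX10, 4 units: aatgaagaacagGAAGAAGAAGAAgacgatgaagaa
DDX24, 4 units: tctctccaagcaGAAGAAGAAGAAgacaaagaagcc
DDX11, 4 units: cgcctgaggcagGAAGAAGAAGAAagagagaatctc
DDX54, 4 units: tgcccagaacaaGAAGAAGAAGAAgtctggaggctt
DDX39A, 3 units: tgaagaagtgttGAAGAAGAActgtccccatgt
DDX39B, 3 units: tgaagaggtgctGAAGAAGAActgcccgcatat
DDX46, 3 units, first of its 3 runs: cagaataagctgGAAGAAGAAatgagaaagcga
Among the tested helicases, 16 of 47 (34.0%) held such a run in the coding sequence, 23 runs in all, against 12.5% of protein-coding genes tested. The letters do not fix the residue: 11 runs in 7 genes are read in the frame of Glu, as in DDX10, DDX11 and DDX46, and 12 runs in 11 genes in the frame of Lys, as in DDX24, DDX27, DDX54 and both DDX39 genes.

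Of the 16 helicase mRNAs with a run, 11 were enriched, with a median log2 fold change of 1.23, and of the 31 without, 12 were enriched, with a median of 0.80. Over the protein-coding genes tested the shares were 35.2% with a run and 8.59% without. Genes with a run also had longer coding sequences, with a median of 2604 against 2223 bases in the helicases and of 2250 against 1365 bases in all protein-coding genes, and the part of length in this difference was not tested. Calls occurred with and without a run in the canonical coding sequence, and the part of the runs in recovery was not tested. DHX9, DHX38 and DDX23 were enriched without one, whereas DDX46, with 3 runs, was not called. DDX39B, whose run starts at coding base 483, close to base 480 in the enriched DDX39A, was not called either. The SE of DDX39B was 0.75, so its value is uncertain.

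Another 5 helicase genes had too few reads to be tested. DDX3Y, DDX43 and DDX53 were listed at 0 in all 4 libraries, and DDX4, the germ cell helicase Vasa, had 1 read in all, in IP replicate 2. DDX25, a testis helicase, had 5 and 6 reads in the IPs and 5 in each Input. At these depths neither recovery nor its absence could be read.

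Relatives of these proteins that lack a DDX or DHX symbol, and protein partners that regulate helicases, were read in the same fit, where 10.5% of all genes were enriched and 8.3% depleted. Of 18 other RNA helicases, 16 were tested, 8 were enriched and 0 depleted, with a median log2 fold change of 1.04. The spliceosomal SNRNP200 (1.69) and AQR (1.58), the exosome helicases MTREX (1.22) and SKIC2 (1.09), UPF1 of nonsense-mediated decay (1.18), the viral RNA sensor IFIH1 (2.09), ZNFX1 (1.32) and IGHMBP2 (1.08) were enriched. The translation factors EIF4A1 (0.28) and EIF4A2 (0.35) and the exon junction helicase EIF4A3 (0.52), themselves DEAD-box proteins, were not called. EIF4A1 had few reads, 63 and 136 in the IPs and 47 and 73 in the Inputs, and an SE of 0.57, so its value is uncertain. MOV10, at 0.998, was just under the fold minimum and was enriched at 1.01 with the replicate block, which makes the count 9 of 16 against 13.4% of all genes. Of the 12 partners, all tested, 9 were enriched and 0 depleted, with a median of 1.34. The enriched partners were EIF4G1 (1.95), CWC22 (1.71), GLE1 (1.09), RBM5 (1.30), CMTR1 (1.03), TFIP11 (2.05), GPATCH1 (1.82), SUGP1 (1.52) and GPKOW (1.38). TFIP11, which activates DHX15, thus had a fold change well above that of DHX15 itself. GLE1, which acts at the pore with the DDX19 helicases, lay close to DDX19B (1.13) and above DDX19A (0.80). Whether partners were recovered alike was not tested. Not called were CNOT1 at 0.90, NKRF at 0.63 and GPATCH2 at -0.08, the last with overlapping IP and Input levels.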

How the data were processed

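RNA was measured in 2 ORC1-FLAG IP and 2 Input libraries of transfected HCT116 nuclei. The deposited values are raw read counts per gene, which the authors made with Trimmomatic, STAR (hg19) and featureCounts, as named in the study's methods. The library kit was stranded, and the annotation release, the strand setting and the treatment of multi-mapping reads are not given in the sources used here. Reads carry no molecular identifiers.

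From the counts, genes kept by filterByExpr were tested with edgeR 4.0.16 (R 4.3.3; quasi-likelihood, robust, TMM scaling, group as the only term, Benjamini-Hochberg adjustment over 14645 genes), and SEs came from the fold change and F statistic. Ratios added 0.5 to TMM-scaled CPM. The edgeR biological coefficient of variation was 0.261. GENCODE v44 (GRCh38, another build than that of the counts) gave symbols, lengths, coordinates and sequences, joined by Ensembl identifier. No match was found there for 11496 of all 63677 genes, 380 of them tested. The script was tested on simulated data.

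Labels tie each Input to the RIP replicate of the same number. Same-numbered libraries deviated together from their group means (Pearson r = 0.645 over genes tested), so the numbers were taken as pairs and a replicate block was an alternative. Others were DESeq2 1.42.0, limma 3.58.1 voom, other scalings, filters, pseudocounts and thresholds, and leaving out each library.

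Members and lists were chosen with earlier results of these data known. Genes named are every called member, paralogue pairs, the highest and lowest of each role group, untested members, those whose call changed and every called gene of the other lists; the remaining members and list genes given by value were chosen after their values were seen. One gene with a symbol of this form and one of the other lists are not reported here.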

Additional observations from a re-analysis of the deposited data

How the results depend on the processing

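The count of 23 enriched helicase mRNAs, beside 10.5% of all genes tested, changed with the settings. It was 20 with DESeq2's size factors in edgeR (9.75% of all genes) and 16 with upper-quartile scaling (7.37%). Without a count filter it was 19 (4.94% of 31990 genes), and with at least 1 CPM in 2 libraries it was 20 (11%). Library totals alone gave 7 (2.59%) and 1 depleted (DDX59, beside 22.2% of all genes). Without a fold minimum the count was 29, and the share of all genes was not computed. With DESeq2 (5.23% of 31990 genes, without a count filter), limma voom (10.5% of the genes tested) or the replicate block (13.4%) the count was 23 each time. The block and DESeq2 changed no call among the helicases. Leaving out single libraries gave 16 to 25 enriched, 0 to 1 depleted and medians of 0.81 to 1.10, and a rho with coding length of 0.32 (without Input replicate 2) to 0.51. The median log2 fold change was 0.37 with library totals alone and 0.81 with upper-quartile scaling. Of the 26 tested members that share no exonic base on the same strand and have neither a named pseudogene nor a listed paralogue, a restriction chosen after seeing the data, 14 (53.8%) were enriched. The count with both ratios above 1-fold was 42 with pseudocounts of 0.1 and 2, 32 with library totals alone and 37 with upper-quartile scaling. The shares of all genes in these settings were not computed.

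Library totals and upper-quartile scaling lowered all genes by nearly the same amount, so members with small values turned sign by construction. With library totals alone, log2 fold changes were -0.19 in DDX1, -0.052 in DDX17, -0.38 in DDX28, -0.49 in DDX39B, -0.31 in DDX46, -0.46 in DDX56, -0.34 in DDX6, -0.086 in DHX32, -0.41 in DHX33, -0.039 in DHX34, -0.12 in DHX35 and -0.43 in DHX58. With upper-quartile scaling they were -0.077 in DDX39B, -0.024 in DDX56 and -0.0066 in DHX58, whereas voom gave 0.63 in DDX47. Leaving out a library, values ranged from -0.99 to 1.42 in DDX39B, -1.72 to 2.83 in DDX47, -0.40 to 0.30 in DDX3X, -0.14 to 0.68 in DDX46, -0.11 to 0.36 in DDX56 and -0.19 to 0.56 in DHX58. The causes of the changes with voom and with a library left out were not tested. Reads were fewest in DDX47, DHX58 and the untested genes, and the part of depth in the spread of values was not tested. Intervals over reads would cover counting error only.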
